A study of Mus musculus with 13 samples.

Results

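The genes described here encode subunits of the Polycomb repressive complexes. They were taken as the rows of the deposited count table whose symbol is Ezh2, Eed, Suz12, Jarid2, Mtf2, Ring1, Rnf2, Pcgf6, Cbx7 or Kdm2b, and all 10 were found among 24470 genes. Their mRNA was measured in 5 libraries and the chromatin around their start sites in 8 peak lists. All 13 libraries came from E14 mouse embryonic stem cells, a line of 129/Ola background grown in serum with leukemia inhibitory factor (LIF), and the labels name no genetic change or drug. In low-input ATAC&mRNA-seq, the Tn5 transposase cut open chromatin in gently permeabilized cells, and poly(A) RNA was then pulled out of the same lysate on oligo-dT beads, so that 1 pool of cells gave an ATAC library and an mRNA library. Experiments 1 and 2 were done on different days: experiment 1 used 10000 and 20000 cells, and experiment 2 used 5000, 10000 and 20000 cells. Omni-ATAC, an ATAC protocol without the RNA step, was run once each on 5000, 10000 and 50000 cells. Nothing in the labels says that libraries of 1 experiment came from separate cultures, so p-values measure the spread between these libraries, which may be technical.

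Polycomb repressive complex 2 (PRC2) places methyl groups on a lysine of histone H3 and so marks silent developmental genes. EZH2 is its catalytic subunit, EED and SUZ12 hold the enzyme together and are needed for its activity, and JARID2 and MTF2 are accessory subunits that help to bring it to CpG-rich DNA. Polycomb repressive complex 1 (PRC1) is built on RING1 or RNF2 (RING1B), the ligases that attach ubiquitin to histone H2A. CBX7 reads the methyl mark in canonical PRC1 of embryonic stem cells, while PCGF6 and KDM2B belong to variant forms, KDM2B binding unmethylated CpG through a CxxC zinc finger. In embryonic stem cells these complexes keep lineage genes off while pluripotency lasts.

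The promoters are shown first because the peak lists divide the genes by where their open chromatin lies. Each line gives the 250 bases before a RefSeq start site of the GRCm38.p6 build, 5′ to 3′ on the strand of the gene, and capitals mark bases that lie inside a peak in at least 4 of the 8 lists. Ezh2, Suz12, Jarid2 and Rnf2 are shown for the stretch that recurred between lists, and the pair of Kdm2b windows for the contrast between its inner and outer start sites. The windows are chr6:47595031-47595280 (minus strand) for Ezh2, chr11:79992856-79993105 (plus) for Suz12, chr13:44730524-44730773 (plus) for Jarid2, chr1:151500992-151501241 (minus) for Rnf2, chr5:122900368-122900617 (minus) for the inner start of Kdm2b and chr5:122989100-122989349 (minus) for its outer start.
Ezh2: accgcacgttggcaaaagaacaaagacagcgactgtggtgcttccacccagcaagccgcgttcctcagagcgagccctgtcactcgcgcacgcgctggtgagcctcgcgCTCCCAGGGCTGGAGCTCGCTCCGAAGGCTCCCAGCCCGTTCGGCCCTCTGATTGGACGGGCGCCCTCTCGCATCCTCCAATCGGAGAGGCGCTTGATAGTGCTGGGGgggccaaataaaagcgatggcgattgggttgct
Suz12: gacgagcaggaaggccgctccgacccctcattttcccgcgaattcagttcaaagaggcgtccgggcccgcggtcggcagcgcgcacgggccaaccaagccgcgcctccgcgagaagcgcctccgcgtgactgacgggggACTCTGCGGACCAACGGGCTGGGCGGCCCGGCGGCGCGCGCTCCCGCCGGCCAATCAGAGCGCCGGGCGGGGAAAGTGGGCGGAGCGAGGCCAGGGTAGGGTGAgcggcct
Jarid2: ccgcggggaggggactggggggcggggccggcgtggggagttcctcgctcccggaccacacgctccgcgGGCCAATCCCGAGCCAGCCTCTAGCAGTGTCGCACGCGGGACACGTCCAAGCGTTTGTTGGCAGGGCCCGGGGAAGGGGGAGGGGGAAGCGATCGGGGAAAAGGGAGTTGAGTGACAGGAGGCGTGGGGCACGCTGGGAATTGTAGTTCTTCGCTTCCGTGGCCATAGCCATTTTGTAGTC
Rnf2: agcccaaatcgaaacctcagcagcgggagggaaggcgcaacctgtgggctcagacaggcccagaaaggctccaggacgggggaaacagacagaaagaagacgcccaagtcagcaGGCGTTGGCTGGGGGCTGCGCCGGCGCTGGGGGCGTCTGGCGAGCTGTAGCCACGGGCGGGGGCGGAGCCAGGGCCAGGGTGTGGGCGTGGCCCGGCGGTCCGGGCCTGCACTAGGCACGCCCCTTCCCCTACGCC
Kdm2b inner start: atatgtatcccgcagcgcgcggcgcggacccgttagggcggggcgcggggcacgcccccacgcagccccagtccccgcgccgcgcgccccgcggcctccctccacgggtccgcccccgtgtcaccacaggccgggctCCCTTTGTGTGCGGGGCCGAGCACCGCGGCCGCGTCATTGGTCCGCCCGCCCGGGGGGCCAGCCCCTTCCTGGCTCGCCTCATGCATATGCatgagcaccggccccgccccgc
Kdm2b outer start: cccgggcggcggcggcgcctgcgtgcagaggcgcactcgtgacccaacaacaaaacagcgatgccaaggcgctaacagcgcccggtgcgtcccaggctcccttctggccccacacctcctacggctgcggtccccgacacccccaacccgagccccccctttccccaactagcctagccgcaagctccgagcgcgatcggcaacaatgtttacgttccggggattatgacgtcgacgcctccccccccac

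The capital stretch held 108 bases at Ezh2, 104 at Suz12, 181 at Jarid2, 136 at Rnf2 and 91 at the inner start of Kdm2b. At the outer start of Kdm2b it held 0 bases, since a single list had a peak there. The 15 RefSeq windows of the 10 genes held a median of 23 CpG dinucleotides (range 2 to 38). The median was 6 (quartiles 2 and 16) over all 32851 windows of 27025 genes, expressed here or not. No median was taken over expressed genes alone, so the difference is not shown to be particular to Polycomb genes. CpG counts were 23 at Ezh2, 37 at Suz12, 23 at Jarid2, 20 at Rnf2, 36 at the inner Kdm2b start and 27 at the outer. Among windows not shown, Ring1 held 30, and Cbx7 and the outer Mtf2 start held 23 each. Counts were lower at Pcgf6 (14), Eed (12), a Kdm2b start at chr5:122988507 (12) and the inner Mtf2 start (2). The median GC content of the 15 windows was 64.8%, beside 52.4% over all windows. It ran from 46.8% at the inner Mtf2 start to 80.8% at a second, overlapping inner Kdm2b window, with Eed at 54.4% and Ezh2 at 63.6%.

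The letters CCAAT, searched on both strands as was every motif here, occurred in 7 of the 15 windows and in 6 of the 10 genes, and in 33.8% of all windows. In Ezh2 they began 64 and 90 bases before the start, both inside peaks of 6 lists, and 11 bases before it, inside peaks of 2 lists. Suz12 had them 61 bases before the start under peaks of 4 lists, and Jarid2 179 bases before it, with the first base under peaks of 4 lists and the last under peaks of 5. The inner Kdm2b window had them 77 bases before the start under peaks of 5 lists. In Cbx7, 190 bases before the start, and in the inner Mtf2 window, 98 bases before it, they lay under peaks of 0 lists. The E2F letters TTTCCCGC occurred once, in Suz12, 219 bases before the start and under a peak in 1 list (0.895% of all windows), and TTTGGCGC (0.417% of all windows) in none of the 15. The letters CCGGAAG of ETS factors (6.91% of all windows), CGCATGCG of NRF1 (1.55%) and AAGATGGCG of YY1 (0.606%) were in none of them either. The inner Kdm2b window held ATGCATATGCAT, a pair of octamer-like stretches, 32 bases before the start, a motif searched only after this sequence had been seen. It occurred in 3 of 32851 windows (0.00913%), and 2 of those are overlapping windows of Kdm2b itself. Its first base lay under peaks of 7 lists and its last base under a peak of 1.

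A promoter peak was counted where a listed interval came within 1000 bp of the 5′ end of the gene in the count table. The lists give intervals without heights, and 24.4% to 59.2% of the intervals in a list were 9 bp wide, so presence and width are given here and no signal. Jarid2 had a promoter peak in 8 of 8 lists. Ezh2 and Suz12 each had one in 7, Pcgf6 in 6, Mtf2 and Rnf2 in 5, Eed and Cbx7 in 4, Ring1 in 3 and Kdm2b in 1. Among the 6485 genes averaging at least 10 CPM (counts per 1000000 counts of the library), 32.2% had a promoter peak in all 8 lists, 4.36% in 1 list and 4.02% in none.

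The Ezh2 promoter peak was 106 bp wide at 5000 cells, 37 and 106 bp at 10000 cells in experiments 1 and 2, and 101 and 374 bp at 20000 cells. Omni-ATAC gave no Ezh2 promoter peak at 5000 cells, 294 bp at 10000 and 1238 bp at 50000. The 106 bp interval, chr6:47595064-47595169, was listed at the same coordinates at 5000 and at 10000 cells of experiment 2. Jarid2 ranged from 9 to 527 bp over the lists, Suz12 from 9 to 950 bp and Mtf2 from 9 to 844 bp. Rnf2, which had no peak in 3 lists, was 112 bp or wider in the other 5. Eed peaks in the low-input lists were 9 to 13 bp wide, and the Omni-ATAC list of 50000 cells gave 136 bp. Ring1 had 9 and 10 bp in low-input lists and 226 bp in the Omni-ATAC list of 50000 cells, beside 2 microRNA genes, Mir219a-1 and Mir219c, that start 412 and 332 bp from it.

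**Figure D1:**
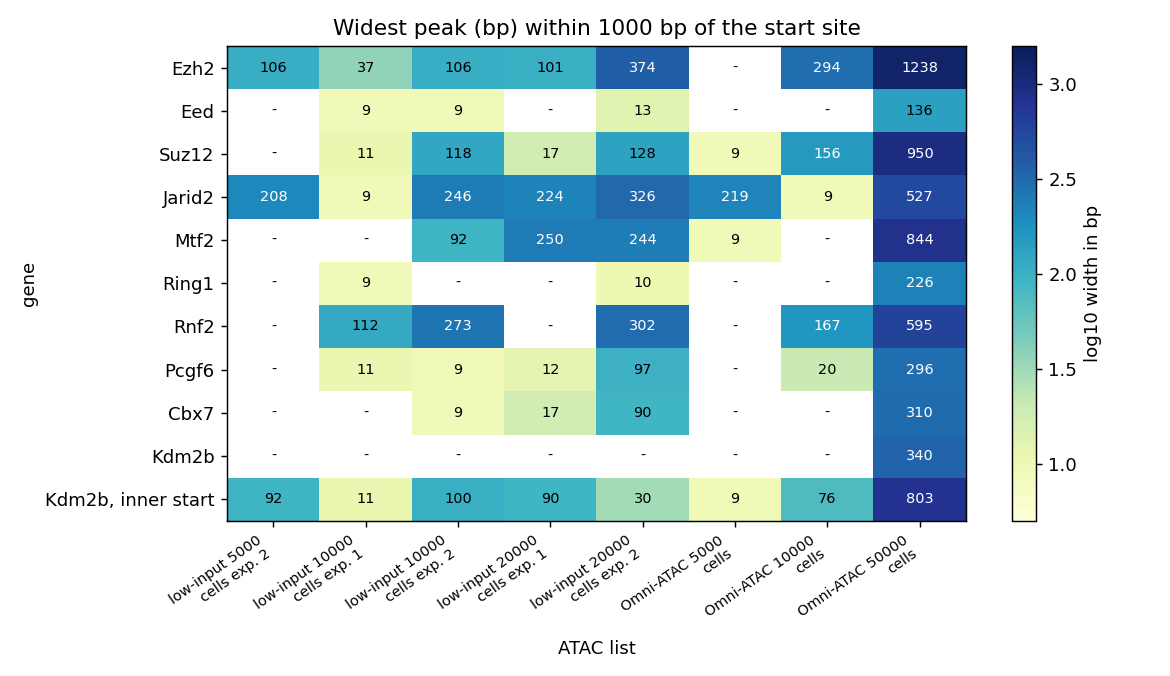
Width in bp of the widest promoter peak (colour on a log10 scale, value in the cell) for each Polycomb gene (rows) and the inner Kdm2b start, in each of the 8 ATAC lists (columns); a dash is no peak within 1000 bp. Jarid2 has a peak in all 8 lists, and Kdm2b at its outer start has 1, of 340 bp, in the Omni-ATAC list of 50000 cells.

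By list, 2 of 10 genes had a promoter peak at 5000 low-input cells, where 62.7% of genes averaging at least 10 CPM and 31.1% of all genes had one. At 10000 cells the counts were 7 in experiment 1 (background 61.7% and 31.1%) and 8 in experiment 2 (76.9% and 40.5%). At 20000 cells they were 6 in experiment 1 (71.2% and 37.4%) and 9 in experiment 2 (88.8% and 50.3%). Omni-ATAC gave 3 genes at 5000 cells (38.8% and 18.6%), 5 at 10000 (75.9% and 41.5%) and 10 at 50000 (95.7% and 61.1%). The deposited unified list held 5 of the genes (65.9% and 33.2%): Ezh2, Suz12, Jarid2, Mtf2 and Rnf2. The counts of Polycomb genes thus lay on both sides of the share among genes averaging at least 10 CPM, and the difference from it was not tested. With peaks of at least 50 bp only, the low-input list of 10000 cells in experiment 1 fell from 7 genes to 1, while Omni-ATAC at 50000 cells kept a count of 10. In that low-input list 45.0% of all intervals were 9 bp wide. The share of all genes with a peak of at least 50 bp was not computed, so the fall is not shown to be particular to Polycomb genes.

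**Figure D2:**
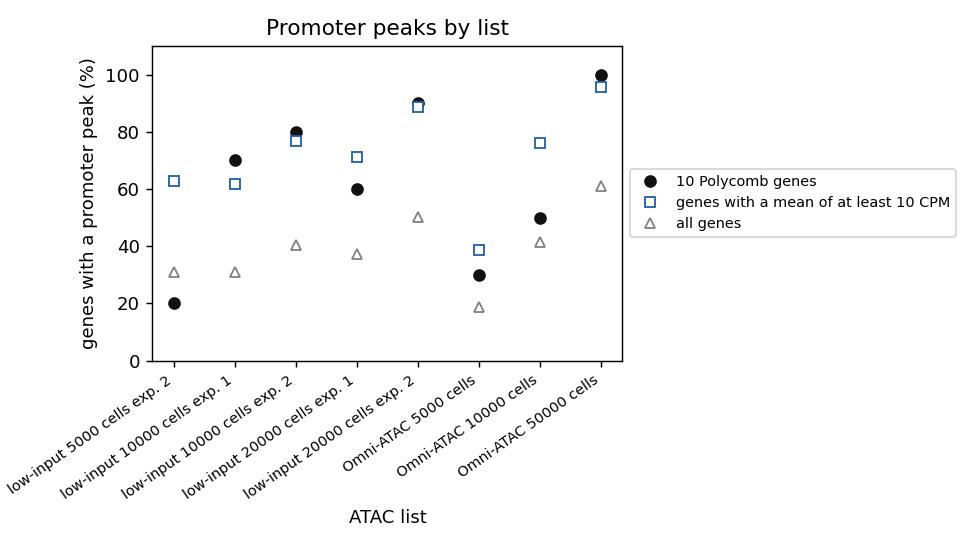
Percentage of genes with a promoter peak (vertical axis) in each ATAC list (horizontal axis) for the 10 Polycomb genes (filled circles), genes averaging at least 10 CPM (squares) and all genes (triangles). The Polycomb genes lie below the squares at 5000 low-input cells (20% against 62.7%) and above them at 50000 Omni-ATAC cells (100% against 95.7%).

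In 7 of 8 lists Kdm2b had peaks within the gene and none at its outer start. Its outer start, chr5:122989099, had a peak in the Omni-ATAC list of 50000 cells alone, 340 bp wide, and the gene A930024E05Rik starts 255 bp away on the opposite strand. RefSeq also places a start at chr5:122900367, 88732 bp into the gene, which gives a shorter transcript. Within 1000 bp of that inner start all 8 lists had a peak, 92, 11, 100, 90 and 30 bp wide in the low-input lists (5000 cells, then 10000 and 20000 cells with experiment 1 before 2) and 9, 76 and 803 bp in the Omni-ATAC lists by rising cell number. In 7 of the lists these peaks fell in 1 region, chr5:122900066-122900868, and in Omni-ATAC at 5000 cells the 9 bp peak lay apart, at chr5:122899626-122899634. In the 5 low-input lists and Omni-ATAC at 10000 cells the interval began between chr5:122900389 and chr5:122900391, within the ATGCATATGCAT letters of the inner window printed above. Counts were made per gene, so the short and the long Kdm2b transcripts cannot be told apart in the mRNA data.

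**Figure D3:**
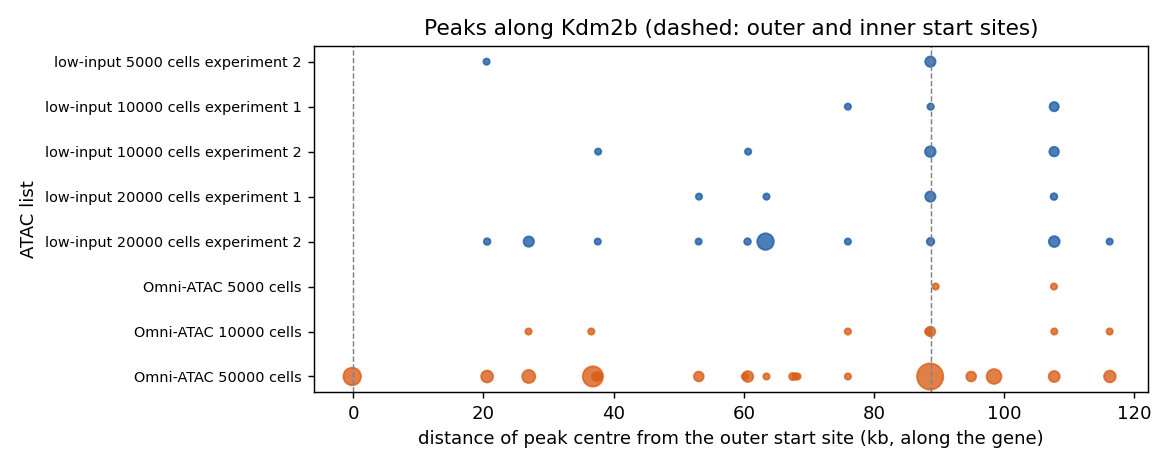
Peaks along Kdm2b, by distance in kb of the peak centre from the outer start along the gene (horizontal axis) in each ATAC list (rows; blue low-input, orange Omni-ATAC); point area grows with peak width and dashed lines mark the outer and inner starts. A point lies within 1000 bp of the inner start, 88732 bp into the gene, in all 8 lists, and at the outer start in 1.

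Some genes with thin promoter peaks had recurrent regions in the gene body. In Eed, the region chr7:89975593-89976117, centred 5121 bp into the gene, was in 8 of 8 lists, 9 bp wide in Omni-ATAC at 5000 cells and 174 to 525 bp in the others, although 4 lists had a promoter peak. In Cbx7, chr15:79927737-79928041 was in 7 lists, 4757 bp into the gene. Jarid2 had 11 regions outside its promoter, of which chr13:44869564-44870025, 139020 bp into the gene, was in 8 lists and chr13:44751820-44752113 in 6. Mtf2 had chr5:108076802-108077540 and chr5:108097608-108097982, each in 7 lists; RefSeq places another Mtf2 start at chr5:108078165, 12491 bp into the gene, and 5 lists had a peak within 1000 bp of it, 254 to 739 bp wide. Pcgf6 had chr19:47047474-47047756 in 5. Kdm2b held 22 regions outside its promoter, including chr5:122881355-122881465 in 7 lists. Rnf2 had 3 regions, none in more than 3 lists, and Ezh2, Suz12 and Ring1 had none. The genes differ in span, with 190870 bp for Jarid2, 118432 bp for Kdm2b, 31418 bp for Rnf2 and 16840 bp for Cbx7. Such regions were not counted over other genes, and the part of gene length was not tested. No other gene overlapped or started within 1000 bp of the regions in 4 or more lists, and exons could not be told from introns because the annotation used here lists no exons.

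The mRNA libraries held 13727122 to 20426252 counts assigned to genes, and 3 counts correspond to 0.147 to 0.219 CPM. Their embryonic stem cell label was matched by its markers: 7 of 7 genes, among them Pou5f1 and Nanog, averaged at least 10 CPM, summing to 2555 to 2682 CPM in experiment 1 and 2736 to 2803 CPM in experiment 2. Fibroblast or feeder markers summed to 32.1 to 35.3 CPM in experiment 1 and 9.01 to 10.5 CPM in experiment 2, with 1 of 7 at 10 CPM or more on average and Col3a1 and Lum at 0 in all 5 libraries. Primitive endoderm markers summed to 10.2 to 13.8 and 1.66 to 2.74 CPM, with 0 of 5 at 10 CPM, and trophoblast markers to 31.0 to 33.7 and 29.8 to 31.3 CPM, with 1 of 5 at 10 CPM. The fibroblast sum followed Thy1, at 29.2 and 33.9 CPM in experiment 1 and at 9.78, 6.77 and 7.05 CPM in experiment 2; without Thy1, a split made after its values were seen, the other 6 markers summed to 1.41 to 2.91 and 0.716 to 2.84 CPM, which overlap. The embryonic stem cell, fibroblast and primitive endoderm sums differed between experiments and the trophoblast sums overlapped. Single markers did not all follow their sums. Zfp42, Sox2 and Klf4 were higher in every library of experiment 2, while Pou5f1, Nanog, Esrrb and Dppa5a overlapped between experiments. Gata6, Dab2 and Pdgfra were lower in every library of experiment 2, while Gata4 and Sox17 overlapped. The part of the markers in the results below was not tested. In such bulk libraries, fewer cells of a type and less RNA per cell cannot be told apart. All 10 Polycomb genes were detected in every library and passed the filter on low counts. CPM is not scaled to transcript length, so levels are compared between libraries and not between genes.

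Between the experiments, 3 of the 10 genes were lower in experiment 2 and 0 were higher, by edgeR's quasi-likelihood test on the 4 libraries of 10000 and 20000 cells at a Benjamini-Hochberg adjusted p under 0.05. Over the 12523 genes tested, 6.76% were lower, 5.75% higher and 12.5% called in either direction. The called genes were Suz12 of PRC2 and Pcgf6 and Cbx7 of PRC1. The count fell to 0 without the 10000-cell library of experiment 1 or the 20000-cell library of experiment 2, and to 1 without the 10000-cell library of experiment 2 or when scaled by library size alone. The log2 fold changes of experiment 2 over experiment 1 were negative for 7 genes and positive for 3, with a median of -0.295, beside a median of 0.001 over all genes tested. At an unadjusted p under 0.05, 4 of the 10 passed, against 25.7% of all genes. The CPM ranges of the experiments did not overlap for 7 of the 10 genes over the 4 libraries (58.6% of genes averaging at least 10 CPM) and for 6 with the 5000-cell library added (46.3%). Ring1 is in both counts but averaged 8.59 CPM, so it is not in that background.

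Of the PRC2 core, Ezh2 was at 142 CPM (10000 cells) and 141 CPM (20000 cells) in experiment 1 and at 131, 165 and 163 CPM (5000, 10000 and 20000 cells) in experiment 2. At matched cell numbers experiment 2 was higher and the experiments did not overlap, but the 5000-cell library was the lowest of all, and the log2 fold change of 0.21 ± 0.12 (SE) did not pass (edgeR adjusted p = 0.278). Eed was at 311 and 327 CPM in experiment 1 and at 236, 277 and 282 CPM in experiment 2. All 3 libraries of experiment 2 lay below both of experiment 1, and the log2 fold change of -0.19 ± 0.11 did not pass (edgeR adjusted p = 0.321). Suz12 was at 140 and 117 CPM in experiment 1 and at 72.6, 92.9 and 77.6 CPM in experiment 2. Every experiment 2 library was below every experiment 1 library, and Suz12 fell by 0.59 ± 0.14 on the log2 scale (edgeR adjusted p = 0.00559). The call was lost without the 10000-cell library of experiment 1 (-0.45, edgeR adjusted p = 0.112) and without the 20000-cell library of experiment 2 (-0.45, adjusted p = 0.0945).

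Relative to Ezh2 in the same library, a ratio chosen after the values were seen, Suz12 counts stood at 0.988 and 0.827 in experiment 1 and at 0.553, 0.563 and 0.478 in experiment 2 (5000, 10000 and 20000 cells). Eed over Ezh2 was 2.20 and 2.32 in experiment 1 and 1.80, 1.68 and 1.74 in experiment 2. Both ratios were lower in each library of experiment 2 than in either of experiment 1. The share of other gene pairs that differ in this way was not computed. A ratio within a library does not depend on how libraries are scaled, and it is not a ratio of molecules, since transcript lengths differ.

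Neither PRC2 accessory gene passed the test. Jarid2 was at 83.7 and 105 CPM in experiment 1 and at 69.2, 77.8 and 92.8 CPM in experiment 2, and the experiments overlapped (log2 fold change -0.14 ± 0.14, edgeR adjusted p = 0.584). Mtf2 was at 151 and 145 CPM in experiment 1 and at 118, 159 and 148 CPM in experiment 2, again overlapping (0.05 ± 0.12, edgeR adjusted p = 0.845).

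Of the PRC1 ligases, Rnf2 was at 21.6 and 24.6 CPM in experiment 1 and at 23.3, 22.6 and 24.5 CPM in experiment 2, a coefficient of variation of 5.49% over the 5 libraries and a log2 fold change of 0.03 ± 0.18 (edgeR adjusted p = 0.943). For the 9 Polycomb genes averaging at least 10 CPM the median coefficient was 16.0%, beside 15.0% (quartiles 10.4% and 20.8%) for all 6485 such genes. Ring1, the paralog of Rnf2, rested on 100 to 169 counts per library and was at 10.7 and 9.90 CPM in experiment 1 and at 7.64, 6.45 and 8.27 CPM in experiment 2. Its experiments did not overlap, yet the log2 fold change of -0.48 ± 0.27 did not pass (edgeR adjusted p = 0.272). Ring1 over Rnf2 counts were 0.497 and 0.403 in experiment 1 and 0.328, 0.285 and 0.337 in experiment 2, a ratio also chosen after the values were seen.

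Among the subunits that set the form of PRC1, Pcgf6 was at 96.6 and 72.9 CPM in experiment 1 and at 69.7, 57.8 and 65.1 CPM in experiment 2. It was lower in every library of experiment 2 and fell by 0.46 ± 0.15 on the log2 scale (edgeR adjusted p = 0.0398). That call remained without the 20000-cell library of experiment 1 (-0.63, edgeR adjusted p = 0.00742) and was lost without any of the other 3, most of all without the 10000-cell library of experiment 1 (-0.24, adjusted p = 0.536), and with the 5000-cell library added (-0.35, adjusted p = 0.118). Cbx7 was at 88.3 and 85.6 CPM in experiment 1 and at 60.6, 64.0 and 67.5 CPM in experiment 2. The groups did not overlap and Cbx7 fell by 0.40 ± 0.13 (edgeR adjusted p = 0.0463), but leaving out any 1 of the 4 libraries ended the call (adjusted p from 0.125 to 0.235). Cbx7 lies on chromosome 15, where the median log2 fold change of 506 tested genes was -0.29. Relative to that median Cbx7 was at -0.11. Kdm2b, with 118 to 243 counts per library, was at 17.7 and 11.8 CPM in experiment 1 and at 7.04, 9.03 and 8.96 CPM in experiment 2. Its groups did not overlap, and its log2 fold change of -0.71 ± 0.25 just missed the threshold (edgeR adjusted p = 0.0597). It passed with cell number as a block (-0.69, edgeR adjusted p = 0.0495), with the 5000-cell library added (-0.78, adjusted p = 0.0351) and without the 20000-cell library of experiment 1 (-0.96, adjusted p = 0.00615). It did not pass without the 10000-cell library of experiment 1 (-0.40, edgeR adjusted p = 0.494), without the 10000-cell (0.220) or 20000-cell (0.222) library of experiment 2, or by DESeq2 (0.134).

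**Figure D4:**
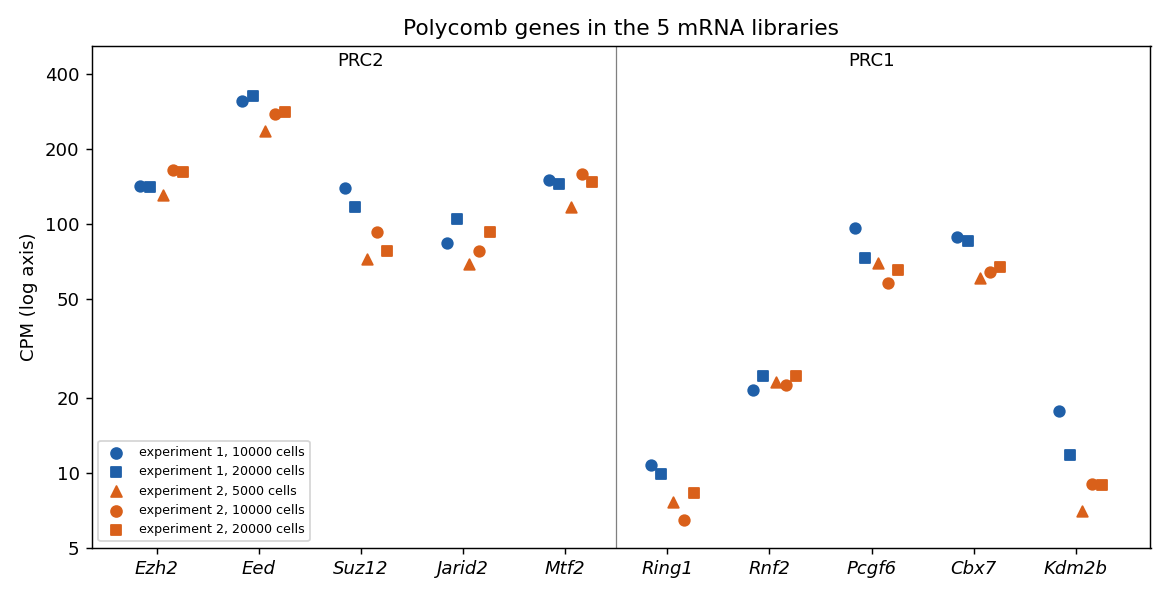
CPM on a log axis (vertical) of the 10 Polycomb genes (horizontal, PRC2 left and PRC1 right) in each of the 5 mRNA libraries; blue is experiment 1, orange experiment 2, and the symbol gives the cell number. For Suz12, Cbx7 and Kdm2b all 3 orange points lie below both blue points, while those of Rnf2 overlap.

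Calls among the other Polycomb genes are read against the 12.5% of all genes called in either direction and the 25.7% at an unadjusted p under 0.05. Of 9 further PRC2 genes, 8 were tested, with 0 higher and 2 lower in experiment 2. Those were Epop, an accessory subunit (149 and 164 CPM against 96.5, 103 and 121; -0.49 ± 0.13, edgeR adjusted p = 0.0121), and Aebp2, a JARID2-linked subunit (20.1 and 20.8 CPM against 13.6, 12.8 and 12.0; -0.72 ± 0.21, adjusted p = 0.0211). Of 25 further PRC1 genes, 23 were tested, with 0 higher and 1 lower: Yaf2, a RYBP relative of variant PRC1, at 13.7 and 14.7 CPM against 12.2, 7.80 and 8.47 (-0.80 ± 0.24, edgeR adjusted p = 0.0276). Each of these 3 calls was lost without 1 of several libraries: Epop without the 10000-cell library of experiment 2 (edgeR adjusted p = 0.151) or the 20000-cell library of experiment 1 (0.115), and Aebp2 and Yaf2 without either of those (0.0913 and 0.0549 for Aebp2, 0.176 and 0.0675 for Yaf2) or without the 20000-cell library of experiment 2 (0.149 and 0.111). Yaf2 was also lost with the 5000-cell library added (-0.53, adjusted p = 0.180) and by DESeq2 (adjusted p = 0.0604). Yaf2 and Cbx6 lie on chromosome 15, as Cbx7 does, and relative to its median they were at -0.51 and -0.13. The median log2 fold change was 0.013 for the 8 PRC2 genes (5 positive, 3 negative) and -0.13 for the 23 PRC1 genes (6 positive, 17 negative). None of 9 genes that oppose Polycomb, the demethylases Kdm6a and Kdm6b among them, was called by edgeR. An unadjusted p under 0.05 was found for 2 of them, in opposite directions, Kdm6b at -0.76 and Bap1 at 0.40. The median of the 9 genes was 0.20 (7 positive, 2 negative). The paralogs Ezh1 (0.02 ± 0.30), Pcgf1 (-0.06), Pcgf2 (-0.42 ± 0.16, edgeR adjusted p = 0.0829), Cbx2 (-0.10), Cbx6 (-0.42, adjusted p = 0.258) and Kdm2a (-0.10) did not pass either. Of 20 genes that Polycomb silences in embryonic stem cells, 3 averaged at least 1 CPM and 4 had counts enough to be tested. Gata6, an endoderm regulator, was lower in experiment 2 (44 and 22 counts in experiment 1 against 0, 0 and 6; edgeR adjusted p = 0.0131), a call lost without either 10000-cell library (adjusted p = 0.333 for experiment 1 and 0.143 for experiment 2). Gata6 is also 1 of the 5 primitive endoderm markers, whose sum was lower in experiment 2. Dab2 was at 8.23 and 4.35 CPM against 0.895, 1.03 and 0.490, and Pdgfra was lower too, while Gata4 and Sox17 overlapped. The part of those markers was not tested. Pax6, a neural regulator, was higher (2 and 0 counts against 93, 108 and 72; adjusted p = 1.49e-05).

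**Figure D5:**
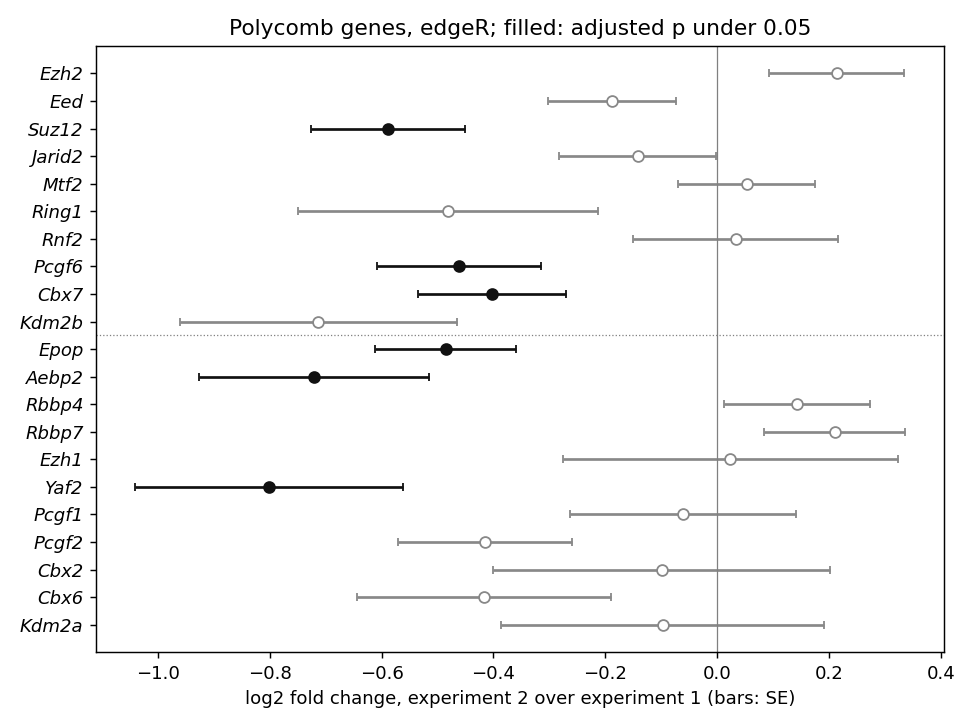
Log2 fold change of experiment 2 over experiment 1 (horizontal axis, bars SE, edgeR) for the 10 Polycomb genes above the dotted line and 11 related genes below it; filled points passed an adjusted p under 0.05. Suz12, Pcgf6 and Cbx7 are the filled points above the line, and Epop, Aebp2 and Yaf2 those below, all to the left of 0.

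Cell number gave no call. Between 20000 and 10000 cells, edgeR called 0 of the 10 genes, as it called 0.0% of all genes, with 0 of the 10 and 0.807% of all genes at an unadjusted p under 0.05. DESeq2 called 0 of the 10, and edgeR with the experiment as a block called 0 of the 10 and 0.0319% of all genes. The log2 fold changes of the 10 lay between -0.38 for Kdm2b and 0.27 for Jarid2. Jarid2 was at 83.7 and 77.8 CPM with 10000 cells and at 105 and 92.8 CPM with 20000 cells (mean 80.8 ± 4.15 against 98.8 ± 8.41, SD, n = 2), and these ranges did not overlap. The ranges of Mtf2 and Rnf2 did not overlap either, Mtf2 lower and Rnf2 higher with 20000 cells. These 3 of 10 genes stand beside 21.4% of genes averaging at least 10 CPM. With 2 libraries a group, a gene that misses the threshold is not shown to be alike at both cell numbers.

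The single 5000-cell library of experiment 2 was the lowest of the 5 for 7 of the 10 genes, Ezh2, Eed, Suz12, Jarid2, Mtf2, Cbx7 and Kdm2b, against 33.1% of genes averaging at least 10 CPM. Relative to the mean of the other 2 libraries of experiment 2, its values ran from 0.766 for Mtf2 to 1.13 for Pcgf6, with a median of 0.848, beside a median of 0.928 (quartiles 0.822 and 1.05) over all such genes. Mtf2 was at 118 CPM there (95% Wilson interval 112 to 123, which covers counting error only). Rnf2 stood at 0.987 and Ring1 at 1.04 of the same mean. With 1 library of 5000 cells, this difference has no replicate and no test.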

How the data were processed

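E14 cells gave 5 mRNA and 8 ATAC libraries. Per the submitters' processing notes, which name tools without roles, the authors used cutadapt, Bowtie2 2.1.0, STAR 2.5, SAMtools 1.3.1, Picard, bedtools 2.24.0, MACS2 2.1.1 and featureCounts (Subread 1.5.0-p1), with mm10. The deposited table holds whole-number counts per gene, and the deposited peak lists hold intervals only, so ATAC depth is unknown. CPM was computed from the counts and the library totals. Counts were tested in edgeR 4.0.16 (R 4.3.3; TMM, filterByExpr, quasi-likelihood, Benjamini-Hochberg) over the whole table, on 4 libraries, with DESeq2 1.42.0 as an alternative. SEs are the log2 fold change divided by the square root of F. The test was checked on simulated data with 200 changed genes. Peaks were counted within 1000 bp of gene 5′ ends; promoter sequences come from RefSeq (GRCm38.p6), which held all 10 genes. Transcript lengths were not used here, so the planned RPKM levels were not computed. The genes named are the 10 members and 4 further Polycomb lists; members and lists were chosen with earlier results of these data known. The experiment number marks a shared day and pairs the libraries of different cell numbers. Over 12520 genes, the experiment differences at 10000 and at 20000 cells correlated at 0.536. No libraries looked like duplicates (lowest chi-square per gene 10.65).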

Additional observations from a re-analysis of the deposited data

Results flagged for a closer look

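For 4 comparisons, the libraries of the 2 experiments, or of the 2 cell numbers, moved in opposite directions. Each effect rests on 1 library against 1, and the difference between the effects was not tested. Ring1 at 20000 over 10000 cells was at -0.11 on the log2 scale in experiment 1 and at 0.36 in experiment 2, a difference of 0.47. Pcgf6 was at -0.41 and 0.17, a difference of 0.58, and Cbx7 at -0.045 and 0.077, a difference of 0.12. Rnf2 in experiment 2 over experiment 1 was at 0.070 with 10000 cells and at -0.0017 with 20000 cells, a difference of -0.072.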

How the results depend on the processing

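Of the 10 Polycomb genes, edgeR called 3 between experiments; RLE factors gave 3, library size alone 1, DESeq2 2, no filter on low counts 2, a filter at 10 CPM 4, the cell-number replicate block 4 and the added 5000-cell library 3. Leaving out 1 library gave 0 to 3 (0 without the 10000-cell library of experiment 1 or the 20000-cell library of experiment 2, 1 without the 10000-cell library of experiment 2), and over all genes 803 to 1817 against 1567. Kdm2b passed with the 10 CPM filter (edgeR adjusted p = 0.0365) and in the cell-number block (0.0495). Pcgf6 was lost with library size alone (0.0526) and DESeq2 (0.0599), Cbx7 with library size alone (0.0556) and without a filter (0.089). Between cell numbers every setting called 0 Polycomb genes, and over all genes 0, except 2 without a filter and 4 with the experiment as a replicate block.

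Uncalled directions turned as follows, on the log2 scale; the cause was not tested. Mtf2 between experiments went to -0.029 with the 5000-cell library added, and Cbx7 between cell numbers to 0.0067 with library size alone and 0.0010 without a filter. Rnf2 between experiments went to -0.019 relative to the median of its chromosome. Leaving out 1 library moved Jarid2 from -0.29 to 0.046 and Rnf2 from -0.056 to 0.15 between experiments. Between cell numbers it moved Ezh2 from -0.13 to 0.10, Eed from -0.065 to 0.14, Suz12 from -0.59 to 0.052, Ring1 from -0.24 to 0.48, Pcgf6 from -0.48 to 0.24, Cbx7 from -0.21 to 0.25 and Kdm2b from -0.77 to 0.19.

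Promoter counts depended on peak width. With peaks of at least 50 bp, low-input lists gave 2 genes (5000 cells), 1 (10000, experiment 1), 5 (10000, experiment 2), 3 (20000, experiment 1) and 7 (20000, experiment 2). Omni-ATAC gave 1 at 5000, 3 at 10000 and 10 at 50000 cells. With the 9097 widest peaks of each list, the number in the shortest list, low-input lists gave 2 and 3 at 10000 cells and 3 and 4 at 20000 cells (experiment 1, then 2), and Omni-ATAC gave 3 at 10000 and 5 at 50000 cells. No share over all genes was computed for either rule, so these changes are not shown to be particular to Polycomb genes. The unified list gave 5, against 9 for 20000 cells in experiment 2. RPKM levels could not be computed without transcript lengths.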
